A study of Mus musculus with 2 samples.

Results

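Gene deserts are long stretches of the genome without protein-coding genes, and the open chromatin inside them is far from any protein-coding promoter. The regions described here are open in both ends of the embryonic mouse femur and lie in such deserts. They were chosen from the deposited peak positions by merging overlapping peaks of the proximal and distal lists. A merged region was kept when it held a peak of each end, overlapped no protein-coding gene body of GENCODE release M21 on mm10, and had its nearest edge more than 100000 bp from every protein-coding transcription start site. This gave 2578 shared desert regions out of 32388 merged regions, of which 23635 (73.0%) held a peak of both ends. Peak presence in both lists and position relative to genes therefore chose the regions, and neither is a finding about them.

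The peaks came from ATAC-seq, in which a transposase cuts accessible DNA and tags it for sequencing. Femurs were taken from E15.5 embryos of FVB mice, listed as strain FVBNJ, with no transgene, mutation or treatment in either group. The proximal and the distal cartilaginous ends were each pooled within a litter, so that a sample mixes animals, and the tissue held all chondrocyte zones together with the perichondrium. Each end has 1 peak list that combines its biological replicates and gives positions only, so the values below carry no replicate error, and no test between the ends could be made. Both lists were checked against promoters of marker genes. A shared region lay within 1 kb of the start of 7 of 10 chondrocyte markers, among them Sox9, Col2a1 and Acan, but not of Sox5, Matn1 or Comp. The same held for 0 of 5 skeletal muscle markers, 0 of 5 osteoblast markers, 1 of 6 blood and endothelial markers (Kdr) and 1 of 4 epithelial markers (Epcam). For scale, 10714 of the 23635 shared regions lay within 1 kb of a protein-coding start, and the autosomes hold 20780 protein-coding genes. The share of all genes with such a region was not counted, so the marker counts are a description and do not establish the cell type.

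Open regions far from promoters often act as enhancers, which bind transcription factors and raise the transcription of a gene that may lie far along the chromosome. Genes that direct development, such as those for transcription factors and signalling proteins, commonly sit beside deserts that hold many such elements, and the nearest gene need not be the target. Growth plate cartilage is the template from which long bones lengthen, and its chondrocytes pass through resting, proliferating and hypertrophic states under the control of Sox9 and other factors. In what follows, a desert is the stretch between neighbouring protein-coding genes, or between groups of overlapping ones, and is named by its flanking genes. The part of a desert more than 100 kb from every protein-coding start site, without undetermined bases, is its allowed sequence. A flanking gene is a landmark here and not a target.

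The sequences below are the central 200 bp of the widest shared region in each of the 8 deserts with most such regions, read from the GRCm38 assembly, whose chromosome sequences are those of mm10. They are shown because they are the longest stretches of open chromatin in the deserts that the results turn on. Each is printed 5′ to 3′ on the plus strand, and capitals mark a Runx (TGTGGTT) or Tead (ACATTCC, here on the other strand) consensus.
Ndfip2 and Spry2, chr14:105732978-105733177: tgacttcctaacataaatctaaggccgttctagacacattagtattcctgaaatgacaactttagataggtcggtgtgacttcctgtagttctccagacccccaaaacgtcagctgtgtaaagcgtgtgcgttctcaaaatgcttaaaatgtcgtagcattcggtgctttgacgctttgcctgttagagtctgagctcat
Flrt2 and Galc, chr12:97466010-97466209: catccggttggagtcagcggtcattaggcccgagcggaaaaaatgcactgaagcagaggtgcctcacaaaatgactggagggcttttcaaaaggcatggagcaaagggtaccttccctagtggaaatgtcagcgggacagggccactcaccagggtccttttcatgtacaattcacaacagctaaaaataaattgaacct
Adamts5 and N6amt1, chr16:87128661-87128860: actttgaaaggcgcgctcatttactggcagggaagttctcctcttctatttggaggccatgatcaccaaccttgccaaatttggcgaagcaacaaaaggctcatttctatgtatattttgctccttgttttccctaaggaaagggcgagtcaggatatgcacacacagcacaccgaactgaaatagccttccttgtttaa
Ets1 and Kirrel3, chr9:34279751-34279950: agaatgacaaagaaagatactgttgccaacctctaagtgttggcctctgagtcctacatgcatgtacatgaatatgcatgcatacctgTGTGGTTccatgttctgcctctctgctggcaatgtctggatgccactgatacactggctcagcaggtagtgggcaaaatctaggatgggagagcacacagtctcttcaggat
Myc and Gsdmc, chr15:63360801-63361000: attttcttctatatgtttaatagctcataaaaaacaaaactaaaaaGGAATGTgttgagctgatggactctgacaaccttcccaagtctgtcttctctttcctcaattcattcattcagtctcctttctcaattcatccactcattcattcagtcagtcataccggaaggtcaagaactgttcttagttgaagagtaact
Ywhaq and Gm10330, chr12:23314984-23315183: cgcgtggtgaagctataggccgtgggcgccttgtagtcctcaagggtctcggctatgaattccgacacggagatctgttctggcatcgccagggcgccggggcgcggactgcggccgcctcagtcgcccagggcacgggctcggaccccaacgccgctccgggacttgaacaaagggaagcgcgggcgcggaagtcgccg
Epha7 and Map3k7, chr4:31768472-31768671: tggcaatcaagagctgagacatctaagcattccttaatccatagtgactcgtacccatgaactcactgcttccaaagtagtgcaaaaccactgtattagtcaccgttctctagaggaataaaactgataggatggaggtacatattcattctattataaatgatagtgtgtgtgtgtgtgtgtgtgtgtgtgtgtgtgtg
Fam181b and Tenm4, chr7:95853302-95853501: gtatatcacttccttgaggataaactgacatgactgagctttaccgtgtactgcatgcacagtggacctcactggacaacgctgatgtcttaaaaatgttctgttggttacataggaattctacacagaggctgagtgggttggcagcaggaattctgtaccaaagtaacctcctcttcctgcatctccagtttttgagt

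Those windows came from regions between 941 bp and 1878 bp wide. None of the windows held the AP-1 consensus TGACTCA, the letters bound by Fos and Jun dimers. The window between Ywhaq and Gm10330 came from a region with a GC content of 65.0%, whereas the regions of the other 7 windows had between 40.7% and 47.2%. In that region, 86.2% of the 32-mers (all stretches of 32 bases) had another copy in the assembly, and in the other 7 the share was at most 6.37%.

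The next sequences are the consensus matches in the desert between Ndfip2 and Spry2, which held more shared regions than any other. They were chosen after the values had been seen, to show what a match looks like in context. Each has 20 bases on either side and is printed 5′ to 3′ on the strand that carries the consensus, with the match in capitals.
AP-1 match, chr14:105397577-105397623, minus strand: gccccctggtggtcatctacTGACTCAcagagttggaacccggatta
Ctcf match, chr14:105397592-105397643, plus strand: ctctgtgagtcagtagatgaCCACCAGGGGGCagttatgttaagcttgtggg
AP-1 match, chr14:105501057-105501103, plus strand: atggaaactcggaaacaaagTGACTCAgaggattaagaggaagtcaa
AP-1 match, chr14:105558970-105559016, plus strand: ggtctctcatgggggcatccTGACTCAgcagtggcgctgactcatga
AP-1 match, chr14:105558987-105559033, plus strand: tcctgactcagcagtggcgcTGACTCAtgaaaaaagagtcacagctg
AP-1 match, chr14:105597689-105597735, plus strand: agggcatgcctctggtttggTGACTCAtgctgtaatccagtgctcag
AP-1 match, chr14:105615971-105616017, plus strand: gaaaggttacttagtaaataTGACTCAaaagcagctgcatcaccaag
AP-1 match, chr14:105616018-105616064, plus strand: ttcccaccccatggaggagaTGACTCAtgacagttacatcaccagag
AP-1 match, chr14:105678797-105678843, minus strand: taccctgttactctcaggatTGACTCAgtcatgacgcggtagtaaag
AP-1 match, chr14:105684415-105684461, minus strand: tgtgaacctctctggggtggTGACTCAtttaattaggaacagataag
AP-1 match, chr14:105684465-105684511, plus strand: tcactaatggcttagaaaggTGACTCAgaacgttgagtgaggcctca

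The 10 AP-1 matches fell in 7 of the 17 shared regions of that desert, and 3 of these regions had a pair of matches. The first region held an AP-1 and a Ctcf match in overlapping windows. Ctcf is the zinc finger protein that marks insulators and the anchors of chromatin loops. Of all 2578 shared desert regions, 784 (30.4%) held an AP-1 consensus and 3 held both consensus sequences.

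Deserts made up 736.9 Mb of allowed sequence, 29.9% of the full length of the autosomes, in 1720 separate stretches. They held 10.9% of the shared regions (95% Wilson interval 10.5% to 11.3%). This interval and those below cover counting error only. The density was 3.50 shared regions per allowed Mb, compared with 9.60 per Mb over the autosomes. Unlike the allowed sequence, the autosome length includes undetermined bases, so the 29.9% and the 9.60 are somewhat low. Per chromosome, the share of shared regions that lay in deserts ranged from 6.05% on chromosome 19, with 42 regions, to 17.3% on chromosome 12, with 179. Of the 4225 merged regions of both kinds in deserts, 61.0% were shared (59.5% to 62.5%), 1002 held a proximal peak only and 645 a distal peak only. The share was 74.8% for merged regions outside deserts. Sharing is part of how the regions were chosen, so these shares are given as a description.

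The distance to the nearest protein-coding start site had a median of 224410 bp and reached 2439703 bp. Of the 2578 regions, 1130 lay between 100 and 200 kb from it, 397 lay beyond 500 kb and 90 beyond 1 Mb. The farthest, at chr14:90911099-90911366 between Pcdh20 and Pcdh9, was 268 bp wide, and 47.0% of its bases were masked as repeats. The regions nearest to the limit on the inside lay 100070 bp from Mat2b, 100115 bp from Tnfrsf11a and 100185 bp from Edem1. The nearest shared regions left out lay 99592 bp from Wls, 99690 bp from Irx4 and 99890 bp from Piezo2. Deserts in this sense were not free of transcription units: 514 regions (19.9%) overlapped the body of a noncoding gene, and 215 (8.34%) lay within 1 kb of the start of one. Only 387 lay more than 100 kb from every annotated start of any gene type.

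Shared regions were spread over many deserts. Of the 1720 stretches, 903 held at least 1, and 342 held exactly 1. At the other end, 163 deserts held 5 or more, and 27 held 10 or more. These 27 contained 317 regions, 12.3% of the total in 6.87% of the allowed sequence. The remaining 817 stretches, which cover 138.6 Mb, held no shared region, and their median allowed length was 74.0 kb against 392.1 kb for stretches with one. Among the 208 stretches of at least 1 Mb the density ranged from 0 to 12.0 shared regions per Mb with a median of 1.87, and Spearman's rho between length and number was 0.12 over these stretches and 0.60 over all 1720, as a description. The largest stretches without a shared region lay between Lrfn5 and Fscb on chromosome 12 (2.52 Mb), between Adam6a and Zfp386 on the same chromosome (2.30 Mb) and between Lingo2 and 1700009N14Rik on chromosome 4 (2.30 Mb). These 6 genes were named after their values had been seen.

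**Figure D1:**
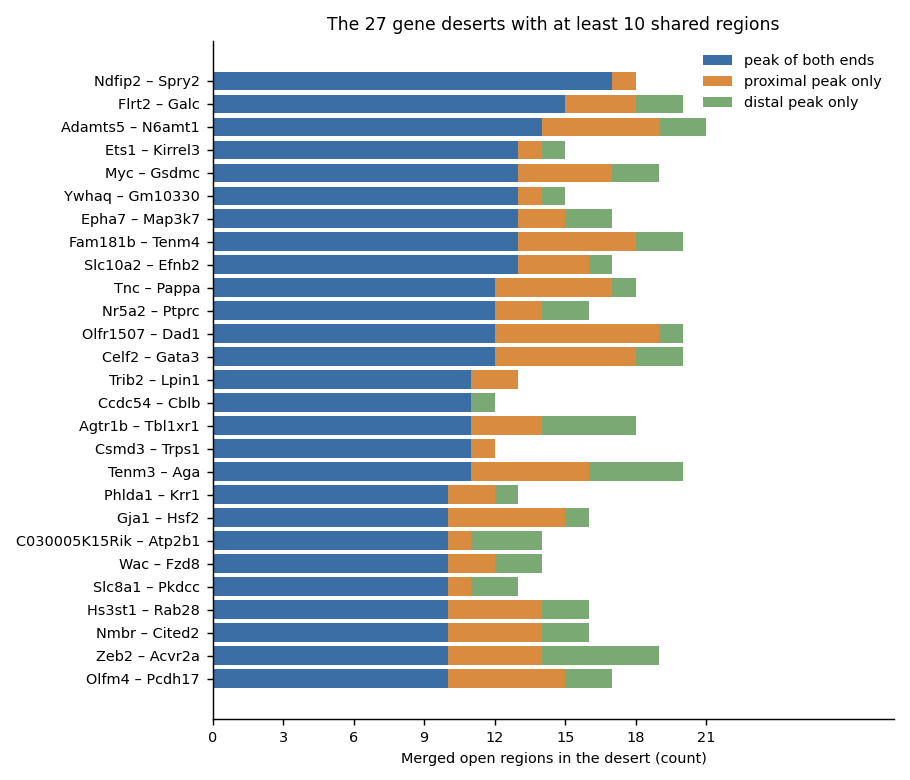
Merged open regions in each of the 27 gene deserts with 10 or more shared regions, named by flanking genes, with the count on the horizontal axis split into regions with a peak of both ends, of the proximal end only and of the distal end only. The desert between Ndfip2 and Spry2 has 17 shared regions and 1 region of a single end, whereas that between Zeb2 and Acvr2a has 10 shared and 9 of a single end.

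The desert between Ndfip2 and Spry2 (chr14:105309299-105891946) held 17 shared regions in 438.1 kb of allowed sequence, or 38.8 per Mb. Spry2 encodes an inhibitor of receptor tyrosine kinase signalling, including that of fibroblast growth factors, and Ndfip2 encodes an adaptor of ubiquitin ligases. Only 1 other merged region was found there, with a proximal peak. The shared regions lay from 138536 bp to 306974 bp from a start site, with Spry2 nearest for 11 and Ndfip2 for 6. Their widths ran from 410 bp to 1878 bp with a median of 770 bp. The proximal peak was the wider one in 8, the distal peak in 8, and 1 had equal widths, so that the median log2 ratio of proximal to distal width was 0.00. The 2 widest regions, of 1878 bp and 1792 bp, held peaks of 1834 bp and 1755 bp in the proximal and 1794 bp and 1679 bp in the distal list. The second of them overlapped the noncoding gene 9330188P03Rik and covered an annotated start of it. Neighbouring shared regions were a median of 14459.5 bp apart, and the desert held 2 runs of 4 regions with gaps under 20 kb, one 28198 bp and the other 22171 bp long.

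The desert between Flrt2 and Galc (chr12:95785216-98202293) came next with 15 shared regions, spread over 1987.0 kb at 6.39 per Mb. Flrt2 encodes a membrane protein of cell adhesion and guidance, and Galc a lysosomal galactosidase. Galc was nearest for 10 of the regions, at up to 1181596 bp. The proximal peak was wider in 13 of the 15, against 61.1% over all shared desert regions. The median log2 ratio in this desert was 0.19, with a range from -0.45 to 0.65. Widths stayed between 521 bp and 941 bp, and 3 of the regions held an AP-1 consensus. The third desert, between Adamts5 and N6amt1 (chr16:85901829-87354184), held 14 shared regions, and a further 5 merged regions there had a proximal peak only and 2 a distal peak only. Adamts5 encodes an aggrecanase, an enzyme that cuts the main proteoglycan of cartilage. Of its 14 regions, 10 were nearest to N6amt1 and 4 to Adamts5, 5 held an AP-1 consensus, and the widest measured 1177 bp.

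Another 6 deserts held 13 shared regions each. Ets1 encodes an Ets family transcription factor, and the desert between it and the adhesion molecule gene Kirrel3 (chr9:32757821-34485893) had 8 regions nearest to Ets1. The 3 closest to Ets1 lay 120105 bp, 127128 bp and 139792 bp from its start. The desert beyond the growth-promoting transcription factor gene Myc, up to Gsdmc (chr15:61990375-63775967), held 6 of its 13 in the noncoding gene Pvt1, between 131368 bp and 314756 bp from the start of Myc. It also held 2 of the 8 shared desert regions with a distal peak at least 2 times as wide as the proximal one. In the first of these the proximal peak measured 356 bp and the distal peak 885 bp, and in the second 603 bp and 1279 bp. Both lay toward Gsdmc.

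Epha7 (an ephrin receptor) and Map3k7 (the Tak1 kinase of transforming growth factor beta and bone morphogenetic protein signalling) flanked 13 regions over 2778.9 kb (chr4:28967500-31964096). All 5 with an AP-1 consensus were nearest to Epha7. The desert between Fam181b and Tenm4 (chr7:93081868-96171245) had 9 of 13 regions nearest to Tenm4, which encodes a teneurin, a large adhesion protein. One of these, with a proximal peak of 1803 bp and a distal peak of 1758 bp, was the widest of the 13. Another, 216361 bp from Tenm4, had a proximal peak of 900 bp and a distal one of 417 bp. In the desert between Slc10a2 and Efnb2 (chr8:5105352-8617433), 10 of 13 regions were nearest to Efnb2, which encodes the ephrin ligand B2, and 6 lay in the noncoding genes Gm31135 and D530014G21Rik.

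The desert between Ywhaq and Gm10330 (chr12:21417638-23778911) had the highest median GC content of the 27 deserts, 65.9%. Its 13 shared regions had a median width of 1123 bp, 0 held an AP-1 consensus, and 9 overlapped noncoding genes or pseudogenes. In 12 of the 13, at least 50% of the 32-mers had another copy in the assembly, so the position of reads from them is uncertain. Leaving out regions with that many copied 32-mers leaves 1 there.

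**Figure D2:**
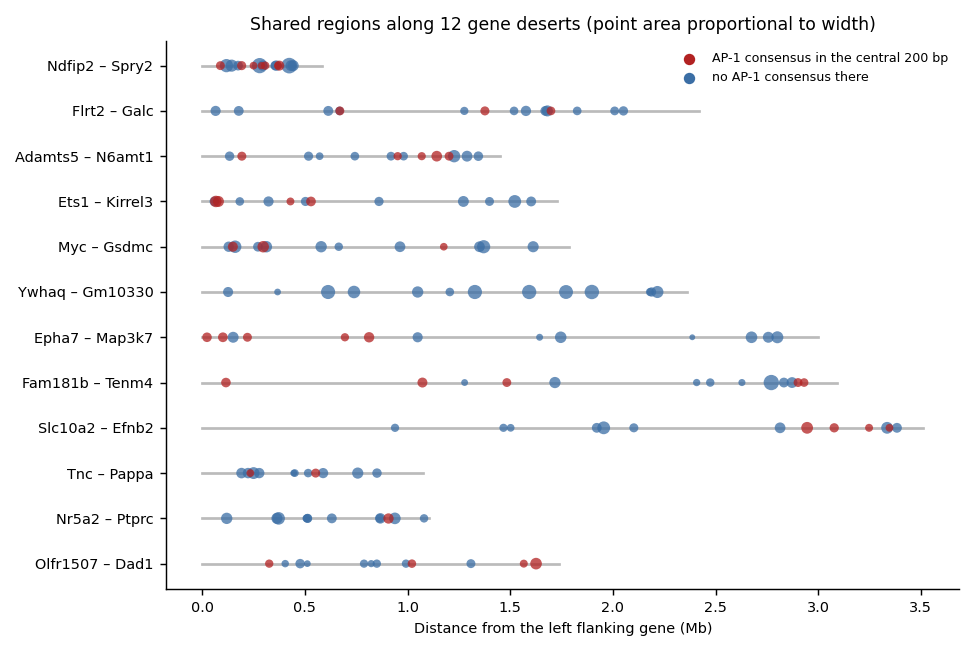
Positions of the shared regions in the 12 deserts with most of them, as distance in Mb from the end of the left flanking gene along the grey line that spans each desert. Point area is proportional to region width and red points hold an AP-1 consensus in the central 200 bp, which applies to 7 of 17 regions between Ndfip2 and Spry2 and to 0 of 13 between Ywhaq and Gm10330.

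Deserts with 11 or 12 shared regions again lay beside genes of varied function. Tnc encodes the matrix protein tenascin C and Pappa a protease that frees insulin-like growth factors. Their desert (chr4:64047016-65124173) held 12 regions at 13.7 per Mb, 8 nearest to Tnc and 4 to Pappa. The desert between Nr5a2 and Ptprc (chr1:136960449-138062860) held 12, of which 1 had an AP-1 consensus. Ptprc encodes the leukocyte antigen CD45 and had no shared region within 1 kb of its start in the marker check. The 12 regions between Celf2 and Gata3 (chr2:7509564-9857077) included 8 nearest to Gata3, a zinc finger transcription factor gene, and 6 with an AP-1 consensus. Between Trib2, a pseudokinase gene, and Lpin1 (chr12:15816923-16535668), 10 of 11 regions were nearest to Trib2 and 8 held an AP-1 consensus. Between Ccdc54 and the ubiquitin ligase gene Cblb (chr16:50591155-52031224), 8 of 11 were nearest to Ccdc54 and the proximal peak was wider in 8. Over all shared desert regions, 30.4% held an AP-1 consensus and 61.1% had a wider proximal peak.

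The 12 regions between Olfr1507 and Dad1 (chr14:52495750-54235478) lay in the T cell receptor alpha locus, whose variable segments are not annotated as protein-coding genes. Annotated variable segments were overlapped by 9 of them, and 9 had at least 50% of their 32-mers in more than 1 copy. This desert also held 7 regions with a proximal peak only. Over all deserts, 10 shared regions overlapped a T cell receptor or immunoglobulin gene.

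By density, among deserts with at least 5 shared regions, that between Cdkn2b and Dmrta1 stood first with 45.2 per allowed Mb. Its 8 regions lay in 177.2 kb of allowed sequence, and 0 merged regions of a single end were found there. Cdkn2b encodes an inhibitor of the cell cycle kinases. The desert between Haao and Zfp36l2 followed with 6 regions at 42.5 per Mb, and Zfp36l2 encodes a protein that binds and destabilises mRNAs. After Ndfip2 and Spry2 came Gli3 and Inhba with 7 regions at 38.5 per Mb. All 7 were nearest to Inhba, a subunit gene of activin A, while Gli3, a transcription factor of hedgehog signalling, faced them with its 3′ end. The fifth desert, between Phlda1 and Krr1, held 10 regions at 37.5 per Mb, 6 with an AP-1 consensus, and the proximal peak was wider in 9 of the 10. Over all shared desert regions, the AP-1 share was 30.4% and that of wider proximal peaks 61.1%. In these small deserts the density rests on few regions and on less than 0.5 Mb of sequence.

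Over all 20780 autosomal protein-coding genes, 54 flanked a desert with at least 10 shared regions. Of the gene lists examined, these included Trps1 and Zeb2 from the limb and skeletal transcription factors, Efnb2 from the growth factors and receptors, Flrt2, Tenm3, Tenm4 and Pcdh17 from the neuronal adhesion and synapse genes, and Ptprc from the blood and endothelial genes. Trps1 encodes a GATA-type repressor that acts in chondrocytes and hair follicles, and was the nearest coding start for 14 shared desert regions, more than any other gene. Of the regions on either side of it, 11 lay between Csmd3 and Trps1, with 1 further region of a single end. Another 9 lay between Trps1 and Eif3h, with 2 further regions of the proximal end only and 2 of the distal end only. Zeb2, a zinc finger homeobox repressor gene, flanked 10 regions with Acvr2a, an activin receptor gene, in a desert where 1 region held an AP-1 consensus. Tenm3 (a teneurin gene) was nearest for 10 of the 11 regions between it and Aga, of which 0 held an AP-1 consensus, and one of the 11 was 1777 bp wide and lay 42 bp from the start of the noncoding gene C130073E24Rik. Olfm4 was nearest for 9 of the 10 regions that lay between it and the protocadherin gene Pcdh17.

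By list, 44 of 94 transcription factors of limb and skeleton (46.8%) flanked a desert with a shared region, as did 26 of 70 secreted growth factors, receptors and antagonists (37.1%) and 49 of 59 neuronal adhesion and synapse genes (83.1%). The share was 7.61% over all 20780 autosomal protein-coding genes. Of the cartilage matrix genes 4 of 32 (12.5%) flanked such a desert, and of the osteoblast genes 0 of 11. Among skeletal muscle genes it was 1 of 14, and among blood and endothelial genes 2 of 17. Genes of the first 3 lists were the nearest coding start for 105, 53 and 106 shared desert regions. A gene with a long desert beside it has more sequence in which a region can fall, and no test of the lists was made.

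Sox9, the transcription factor gene that directs cartilage formation, was looked at after its values had been seen. It was the nearest coding start for 10 shared desert regions and lay between deserts on both sides. On the side of Kcnj2 there were 6 regions in 1516.1 kb of allowed sequence, of which 5 were nearest to Sox9 at 160194 bp, 170647 bp, 311392 bp, 482639 bp and 820010 bp upstream. The region closest to the gene held a proximal peak of 1157 bp and a distal peak of 1145 bp and had an AP-1 consensus. On the side of Slc39a11 there were 7 regions in 362.6 kb of allowed sequence, of which the 3 nearest to Sox9, at 218736 bp, 244648 bp and 278745 bp, had an AP-1 consensus and the other 4 did not. The widest of these 7 had a proximal peak of 855 bp and a distal peak of 1361 bp. The median GC content was 54.8% on this side and 46.8% on the other.

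Neighbouring shared regions of the same desert were a median of 71823 bp apart, and 194 of 1675 such gaps (11.6%) were under 10 kb. Runs of at least 4 regions with every gap under 20 kb were found 9 times. The longest run by number had 5 regions in 37351 bp between C030005K15Rik and Atp2b1, named after the values had been seen.

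The 2578 shared desert regions had a median width of 697.5 bp, with quartiles of 553 bp and 846.75 bp. The median was 684 bp for the 4632 shared intergenic regions 3 to 100 kb from a start site, 675 bp for the 5099 shared regions in gene bodies more than 3 kb from a start, and 1008 bp for the 10714 within 1 kb of a start. Desert regions were narrower than those at starts on 19 of 19 chromosomes, but wider than the intergenic ones on only 12 of 19. Regions are not replicates of a condition, so chromosome counts are given in place of a test.

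**Figure D3:**
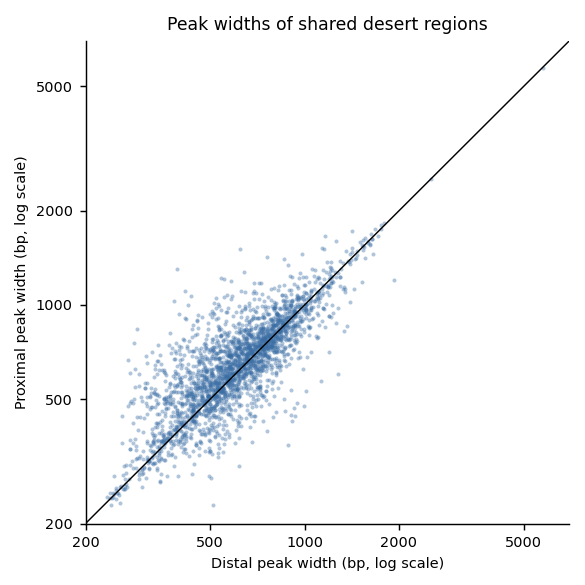
Width of the proximal peak against that of the distal peak for the 2578 shared desert regions, both in bp on log scales, with 1 point per region and a line of equal width. Points lie on both sides of the line, with 1574 regions above it, 991 below it and 13 on it.

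Within the shared desert regions, median peak width was 651.5 bp in the proximal and 607.5 bp in the distal list. The proximal peak was the wider one in 1574 (61.1%) and the distal peak in 991. Over all other shared regions the proximal peak was wider in 56.6%. That set of 21057 includes 10714 regions within 1 kb of a start, and the comparison of ends was not split by class. The median log2 ratio was 0.05 in deserts and 0.03 elsewhere, and the peak centres of the ends were a median of 32 bp apart in deserts and 30.5 bp elsewhere. Peak width varies with how many reads stand above the background, and the depth of the libraries after filtering was not analysed here. A ratio of at least 2 was found in 27 of the 2578 regions with a wider proximal and 8 with a wider distal peak. Among the 21057 other shared regions the counts were 136 and 57. The most unequal were a region between Bcl11a and 5730522E02Rik, with a proximal peak of 1304 bp and a distal one of 392 bp, and the first of the regions toward Gsdmc given above.

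The widest shared desert region, at chr17:39843046-39848791, measured 5746 bp. It overlapped the noncoding gene Gm26917 in the desert between Esp15 and Esp38 and had a GC content of 64.9%. In this region, 14.5% of the 32-mers had another copy in the assembly. Copies missing from the assembly cannot be seen in such a count, so the position of its reads was not settled. The second widest, of 2537 bp between Tcp10c and Tcte2, was masked as repeat over 97.9% of its length, and 86.4% of its 32-mers had another copy. Of the 10 widest regions, 3 had at least 50% copied 32-mers. In all, 98 of the 2578 regions (3.80%) reached that level and 1920 (74.5%) had no copied 32-mer.

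In base composition, shared desert regions had a median GC content of 44.8%, lower than that of shared intergenic regions nearer to genes (49.2%), of shared regions in gene bodies (47.8%) and of those at starts (61.1%). The value was lower in deserts than in the nearer intergenic regions on 19 of 19 chromosomes. It also fell with distance, from 46.3% in the 1130 regions at 100 to 200 kb to 40.6% in the 90 beyond 1 Mb. The ratio of observed to expected CpG dinucleotides had a median of 0.222, against 0.274 in the nearer intergenic regions and 0.741 at starts. Masked repeats covered a median of 9.63% of a desert region and 9.66% of a nearer intergenic one. Only 52 desert regions combined a GC content over 55% with a CpG ratio over 0.6, and 36 of these lay within 1 kb of a noncoding start. Of the same 52, 24 had at least 50% of their 32-mers in more than 1 copy, compared with 3.80% of all shared desert regions.

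**Figure D4:**
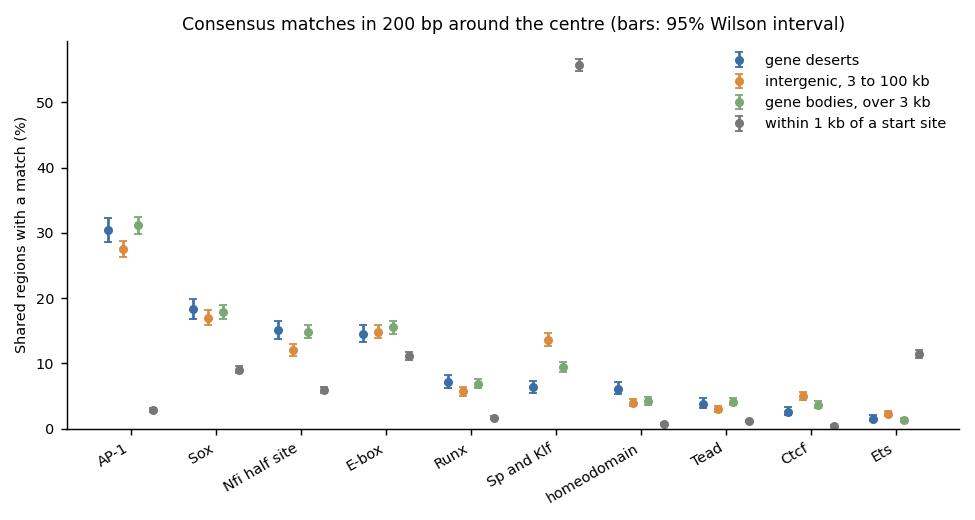
Share of shared regions, in percent, with at least 1 match to each consensus in the 200 bp around the region centre, for gene deserts, intergenic sequence 3 to 100 kb from start sites, gene bodies more than 3 kb from starts, and regions within 1 kb of a start. Points are shares and bars are 95% Wilson intervals. Among the consensus sequences, AP-1 has the highest share within deserts, 30.4%, and Sp and Klf the highest within regions at starts, 55.7%. The AP-1 share in gene bodies is 31.1%.

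Consensus sequences were searched on both strands in the 200 bp around the centre of each merged region, and a match is a description of the letters, not a binding site. No consensus in the set contains another whole one. The AP-1 consensus TGACTCA was present in 784 of the 2578 shared desert regions, or 30.4% (28.7% to 32.2%). It was present in 27.5% of the shared intergenic regions 3 to 100 kb from a start, 31.1% of those in gene bodies and 2.82% of those at starts, and in 19.9% of all merged regions. The share in deserts was above that in the nearer intergenic regions on 14 of 19 chromosomes and above that at starts on 19 of 19. Of the 784 regions, 626 had 1 match, 139 had 2, and 19 had 3 or more, as the sum of 13, 2, 2 and 2 regions with 3 to 6 matches. Among the regions that held a peak of 1 end only in deserts, the share was 34.0% for proximal (31.2% to 37.0%) and 25.4% for distal (22.2% to 28.9%).

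The Ctcf consensus, searched by its degenerate core, was present in 67 shared desert regions, or 2.60% (2.05% to 3.29%). In the nearer intergenic regions the share was 4.99% (4.40% to 5.65%), in gene bodies 3.67%, at starts 0.383%, and over all merged regions 2.78%. It was lower in deserts than in the nearer intergenic regions on 17 of 19 chromosomes. Regions with a Ctcf match had a median width of 494 bp, and those with an AP-1 match 675 bp. When the shared desert regions were split by width into 4 groups of about equal size, 6.19% of the narrowest group and 0.465% of the widest had a Ctcf match. The AP-1 share was 31.0% and 22.5% in these groups and highest, at 34.8%, in the group next to the narrowest.

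**Figure D5:**
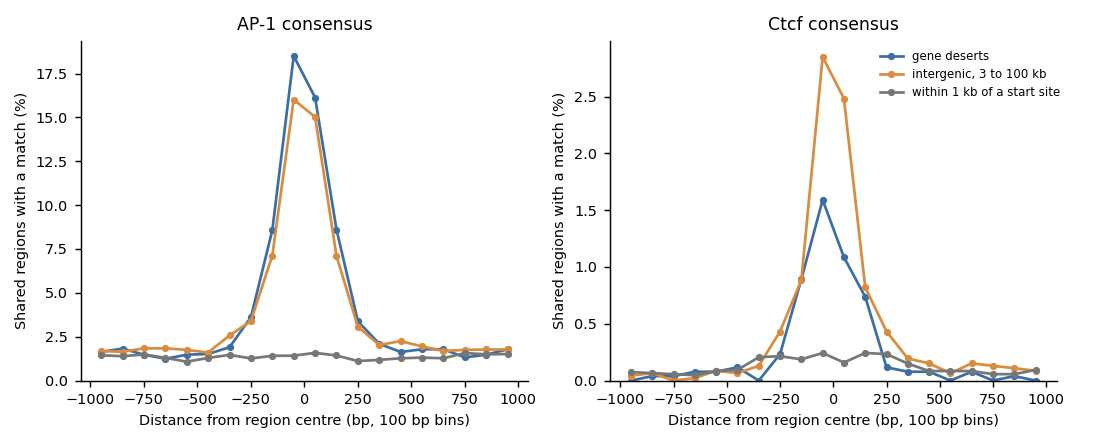
Share of shared regions, in percent, with an AP-1 match (left) or a Ctcf match (right) in bins of 100 bp by distance in bp from the region centre, for gene deserts, intergenic sequence 3 to 100 kb from start sites and regions within 1 kb of a start. In deserts the AP-1 share peaks at 18.5% in the bin just left of the centre and is between 1.24% and 1.82% from 500 to 1000 bp away.

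AP-1 and Ctcf matches lay close to the centres. In the 100 bp to either side of the centre 18.5% and 16.1% of the shared desert regions had an AP-1 match, and in the next 100 bp 8.57% and 8.61%. From 500 to 1000 bp away the share per bin was between 1.24% and 1.82%. For Ctcf the bins beside the centre had 1.59% and 1.09%, and no bin from 500 bp outward exceeded 0.0776%. The Runx consensus had 4.34% and 3.18% beside the centre and between 1.67% and 2.48% from 500 bp outward. For Tead the values were 2.02% and 1.98% beside the centre and between 1.09% and 1.94% from 500 bp outward, and the highest bin, with 2.17%, lay 200 to 300 bp from the centre.

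Among the other motifs, Sox (ACAAAG or ACAATG), named for the family of Sox9, Sox5 and Sox6, was found in 18.3% of shared desert regions (16.9% to 19.8%), with 17.0% in the nearer intergenic regions and 14.7% over all merged regions. Shares away from the centres were not counted for Sox, so no background is given for these short sequences. The Runx consensus TGTGGTT, bound by Runx2 and its relatives in cartilage and bone, was found in 7.10% (6.17% to 8.15%), with 5.70% in the nearer intergenic regions and 4.63% over all. The short Nfi consensus TTGGCA was found in 15.1%, with 12.0% and 11.2% in those sets. The Tead consensus ACATTCC was found in 3.84%, with 2.96% and 2.87%. In gene bodies the shares were 17.9% for Sox, 6.88% for Runx, 14.9% for Nfi and 4.12% for Tead. Each of these lay within the interval of the desert share, and the Tead share was higher than in deserts. The homeodomain core TAATTA, used by many patterning factors, was found in 6.13% (5.27% to 7.12%). Its share was 3.95% in the nearer intergenic regions, 3.05% over all and 4.20% in gene bodies, which was below the desert interval. The Sp and Klf consensus GGGCGG showed the opposite order, with 6.32% (5.45% to 7.33%) in deserts, 13.6% in the nearer intergenic regions and 25.8% over all. The E-box CAGCTG was found in 14.5%, 14.8% and 13.7%, the Ets consensus CCGGAAG in 1.55%, 2.27% and 5.00%, and the cyclic AMP response element TGACGTCA in 0.504%, 0.691% and 1.09%. The base composition of the regions moves with these shares, and its part in them was not tested.

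The 215 shared desert regions within 1 kb of a noncoding start had a median width of 779 bp and a median GC content of 49.0%, against 691 bp and 44.5% in the other 2363. An AP-1 consensus was present in 17.7% of them and in 31.6% of the others, and a Ctcf consensus in 2.79% and 2.58%.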

How the data were processed

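ATAC-seq peaks of the proximal and distal femur ends at E15.5 were used as the authors deposited them: 1 list of positions per end, with 28257 proximal and 27958 distal peaks on 19 autosomes and no signal, score or count. The authors aligned reads to mm10 and called peaks, and the submitters' processing notes name Bowtie2 2.2.8 and MACS2 2.1.1. Duplicates were removed and peaks reproducible between replicates were kept, by irreproducible discovery rate. Reads were not analysed here, and depth after filtering was not analysed here.

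Peaks were merged from 1 bp of overlap and compared with GENCODE release M21 and GRCm38 sequence, using Python 3.11.15, NumPy 2.4.6, pandas 2.3.3, SciPy 1.17.1, pysam 0.24.0 and matplotlib 3.10.9. Start sites were those of protein-coding transcripts of protein-coding genes. Consensus sequences were searched in 200 bp around region centres. Copies were counted over 32-mers on both strands. Shares carry 95% Wilson intervals. Merging, classification and motif search were tested on simulated data. Because each end has 1 list, no test was run.

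The genes named flank the 15 deserts with most shared regions, the 5 densest with at least 5, or are listed genes beside a desert with at least 10. Genes chosen after their values were seen are said to be so, or serve as positions of regions at a limit or an extreme. The regions and the gene lists were chosen with earlier results of these data known. Alternatives are given in the closing section.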

Additional observations from a re-analysis of the deposited data

How the results depend on the processing

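No paired analysis was possible because each femur end has 1 list and no test was made. Of 74 alternative values, 48 stayed within limits (1.5 times for counts, the 95% interval of the reported share or median otherwise) and 26 did not. The 2578 regions became 3904 with a limit of 50 kb, 1448 with 200 kb, 378 when all gene types were avoided and 741 with only the wider peaks (from the median width of each list upward). The 10.9% share of shared regions in deserts became 16.5%, 6.13%, 1.60% and 6.33% in that order, 10.3% with start sites of all transcripts of protein-coding genes, and 11.9% without predicted protein-coding genes. Median GC was 45.9%, 43.8%, 42.8% and 45.6% in the first order and 45.1% without predicted genes. The share of desert regions that were shared was 59.3% at 200 kb, 58.8% avoiding all gene types and 49.1% with wide peaks. With wide peaks, median width was 930.0 bp, the AP-1 share 25.0% and the Ctcf share 0.270%. Searching whole regions gave 48.2% and 4.93%. The desert with most regions held 6 avoiding all gene types (Zeb2 and Acvr2a), 44 without predicted genes and 9 with wide peaks (Ywhaq and Gm10330). At 200 kb it lay between Flrt2 and Galc, with 14. Leaving out regions with at least 50% copied 32-mers, an alternative added after the data were seen, left 2480 and kept all 6 values within limits. Leaving out a replicate was not possible with combined lists. Depth after filtering was not analysed here, so the detection limit of a single peak is unknown.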
